A study of Mus musculus with 20 samples.

Results

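Adipokines are hormones that fat cells release into the blood, and 9 genes that encode them were followed here: Adipoq, Lep, Retn, Rbp4, Nampt, Rarres2, Sfrp5, Apln and Nrg4. They come from a list of secreted adipocyte hormones that was drawn up by name, with earlier results of these data known, and all 9 listed genes were among the 14776 genes of the deposited table. The RNA was that of epididymal white fat (eWAT), taken from C57BL/6J males. The NC group (6 mice) ate normal chow throughout, likewise from the age of 6 weeks. The labels give these mice 14 weeks of diet and, unlike the other groups, name no treatment weeks. The HFD group (7 mice) ate a high-fat diet, 60% of energy as fat, from the age of 6 weeks, for 14 weeks and then for 6 more weeks with saline. The SZ-A group (7 mice) ate the same diet and received 400 mg/kg of Ramulus Mori (Sangzhi) alkaloids, a mulberry twig preparation, by gavage each day over those last 6 weeks. All mice were wild type and were fasted overnight before the tissue was taken. The values are FPKM, fragment counts scaled to exon length and to the size of the library, so levels of different genes can be set side by side.

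Leptin and adiponectin are the classical hormones of white fat. Leptin reports the size of the fat stores to the brain and rises as fat cells fill, whereas adiponectin raises insulin sensitivity in liver and muscle and is usually low in the blood of obese animals. Resistin, retinol binding protein 4 (Rbp4), NAMPT, chemerin (Rarres2), SFRP5, apelin and neuregulin 4 were described later, with roles in insulin action, retinol transport, NAD synthesis, chemotaxis, Wnt signalling, vascular tone and signalling from fat to liver.

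The promoters of 4 of the genes are shown because their transcripts differed in direction with the diet, Lep and Sfrp5 being called higher and Retn lower, and Adipoq lower once NC mouse 6 (described after the promoters) was left out. Each runs 5′ to 3′ from 250 bases before to 50 bases after the start of the gene in RefSeq, build GRCm38.p6. Capitals mark the motifs searched for on both strands, which were the TATA box TATAAA, the C/EBP word TTGCGCAA with its looser form TTNNGCAA, the SP1 word GGGCGG, the CCAAT box and the E-box CACGTG.
Lep, chr6:29059971-29060270, plus strand: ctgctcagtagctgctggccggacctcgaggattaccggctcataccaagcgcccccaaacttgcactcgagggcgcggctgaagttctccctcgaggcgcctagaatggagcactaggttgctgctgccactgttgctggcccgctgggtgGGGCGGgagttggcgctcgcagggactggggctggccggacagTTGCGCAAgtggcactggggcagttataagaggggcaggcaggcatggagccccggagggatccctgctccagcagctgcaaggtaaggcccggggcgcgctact
Sfrp5, chr19:42202203-42202502, minus strand: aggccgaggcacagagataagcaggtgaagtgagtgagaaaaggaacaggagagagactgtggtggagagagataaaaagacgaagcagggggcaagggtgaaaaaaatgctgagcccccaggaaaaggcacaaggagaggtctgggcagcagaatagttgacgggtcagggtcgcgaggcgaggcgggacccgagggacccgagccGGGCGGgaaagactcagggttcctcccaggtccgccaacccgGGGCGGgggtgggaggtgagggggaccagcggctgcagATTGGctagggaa
Retn, chr8:3655520-3655819, plus strand: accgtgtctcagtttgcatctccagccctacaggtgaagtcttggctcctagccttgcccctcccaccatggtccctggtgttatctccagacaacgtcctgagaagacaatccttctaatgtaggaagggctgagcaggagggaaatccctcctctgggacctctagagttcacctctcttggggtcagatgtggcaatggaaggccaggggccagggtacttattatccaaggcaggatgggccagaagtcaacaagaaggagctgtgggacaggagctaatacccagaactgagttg
Adipoq, chr16:23146286-23146585, plus strand: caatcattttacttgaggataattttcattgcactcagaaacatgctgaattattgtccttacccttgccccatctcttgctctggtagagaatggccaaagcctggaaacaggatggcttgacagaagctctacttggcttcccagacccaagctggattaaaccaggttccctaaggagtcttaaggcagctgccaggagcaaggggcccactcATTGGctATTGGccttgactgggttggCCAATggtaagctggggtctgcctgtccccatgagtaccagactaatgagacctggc
RefSeq gave a promoter for 8 of the 9 genes, and Rarres2 had none in the table used. Rbp4 had promoters at chr19:38125272-38125571 and chr19:38124762-38125061, and a match in either counted for the gene. The former held CCAAT and the latter the other words matched in Rbp4. The shares over all promoters count each promoter singly. The Lep promoter held the full C/EBP palindrome TTGCGCAA at positions -55 to -48, with the start base counted as 0, a word found in 0.183% of the 32851 promoters of the same length. The palindrome is also a match to TTNNGCAA, which occurred in the promoters of 3 of the 8 genes (Lep, Nrg4 and Rbp4) and in 10.8% of all promoters. GGGCGG occurred in 5 of the 8, namely Apln, Lep, Nampt, Rbp4 and Sfrp5, and in 35.7% of all promoters. CCAAT occurred in 3 of the 8, with 3 copies in Adipoq, and in 37.4% of all promoters. TATAAA was matched in Rbp4 only, at 13.6% over all promoters, and the E-box was matched in none of the 8, at 7.15% over all promoters. In the Retn promoter none of these words was matched.

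NC mouse 6 went against its label as fat, and its values are given apart below. The summed level of 15 adipocyte markers that do not include the hormones was 287 FPKM in this mouse and 3883 to 9672 FPKM in the other 5 NC mice, and 13 of the 15 were lower in it than in any other mouse. The 5 of 36 listed epididymis epithelium genes that were in the table summed to 1229 FPKM in it, against 85.6 to 315 FPKM in the other NC mice and 9.01 to 25.5 FPKM in HFD mice. Of these 5 genes Sult1e1 went the other way, at 0.221 FPKM in NC mouse 6 and 24.7 to 53.5 FPKM in the other NC mice. In SZ-A mice the sum ranged from 14.3 to 431 FPKM, with mice 2 and 7 highest. Because the table lists only genes above 0 in every mouse, the other epididymis genes were not analysed. Of the 9 hormones, 7 had their lowest value of all mice in NC mouse 6, and Retn and Nrg4 had theirs in HFD mouse 1. The implied library sizes ran from 13938406 to 19591891 fragments, and the fewest recovered reads behind a hormone were 13, for Apln in NC mouse 6. In whole tissue, fewer fat cells and less RNA per fat cell cannot be told apart.

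Lep encodes leptin and lies at chr6:29060220-29073877. In NC mice Lep ranged from 1.17 FPKM in mouse 6 to 189, with a median of 65.3, and the other 5 NC mice started at 45.4 FPKM. In HFD mice it ranged from 125 to 695 FPKM (median 339), and in SZ-A mice from 109 to 632 FPKM (median 401). All but 1 of the 7 HFD mice lay above every NC mouse, and the HFD and SZ-A ranges overlapped along most of their length. Relative to NC, Lep rose in HFD mice by 2.85 on the log2(FPKM + 1) scale (SE 0.84, adjusted p = 0.0156 by limma), and by 1.96 (SE 0.44, adjusted p = 0.00280) without NC mouse 6. Between SZ-A and HFD mice the difference was 0.04 (SE 0.40, adjusted p = 0.959), smaller than the spread within either group. SZ-A mice differed from NC mice without mouse 6 by 1.996 (SE 0.46, adjusted p = 0.0237), while with mouse 6 the adjusted p was 0.0736.

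Sfrp5 encodes a secreted decoy that binds Wnt proteins, and it lies at chr19:42197971-42202252 on the minus strand. NC mice had 1.08 FPKM in mouse 6 and 18.2 to 172 FPKM in the others, HFD mice 47.5 to 288 FPKM (median 194), and SZ-A mice 112 to 592 FPKM (median 332). The SZ-A median was the highest of the 3 groups, and NC mouse 4 reached well into the HFD range. Sfrp5 rose in HFD against NC by 2.45 (SE 0.81, adjusted p = 0.0277 by limma), and by 1.67 (SE 0.54, adjusted p = 0.0220) without NC mouse 6. The call with all mice was lost on leaving out NC mouse 2 or HFD mouse 4, 6 or 7, with adjusted p from 0.05003 to 0.0516. The gap between SZ-A and HFD mice was 0.88 (SE 0.43) and did not pass (adjusted p = 0.148). It was called without SZ-A mouse 5 (1.12, adjusted p = 0.0494) and with array weights, which count mice far from their group for less (1.19, adjusted p = 0.00468). Against NC, Sfrp5 rose in SZ-A mice by 3.32 (SE 0.81, adjusted p = 0.0310) with all mice, where it was the only hormone called, and by 2.55 (SE 0.54, adjusted p = 0.0141) without NC mouse 6. That call was lost without NC mouse 2 or 3 or SZ-A mouse 1, 3, 4 or 6, with adjusted p up to 0.0721.

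Adipoq encodes adiponectin, lies at chr16:23146536-23158028 and had the highest median of the 9 genes in each group. NC mice other than mouse 6 had 859 to 2278 FPKM (median 1509), and mouse 6 had 26.6 FPKM. HFD mice had 222 to 1158 FPKM (median 819), and SZ-A mice 838 to 2668 FPKM (median 1204). SZ-A mice 1, 3 and 4 exceeded 2000 FPKM, as only mouse 4 of the NC group did, while the other 4 SZ-A mice stayed within or near the HFD range. With all mice Adipoq differed between HFD and NC by -0.16 (SE 0.89, adjusted p = 0.901 by limma), and without NC mouse 6 it fell by 1.13 on the log2 scale (SE 0.42, adjusted p = 0.0427), so a single mouse decided the call. The difference between SZ-A and HFD mice was 1.04 (SE 0.42) and missed the threshold over all genes (adjusted p = 0.0836), with an unadjusted two-sided exact permutation p of 0.0390 over 3432 regroupings. Without SZ-A mice 2 and 7, a choice made after the data were seen, it was 1.30 (SE 0.45, adjusted p = 0.0491).

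**Figure D1:**
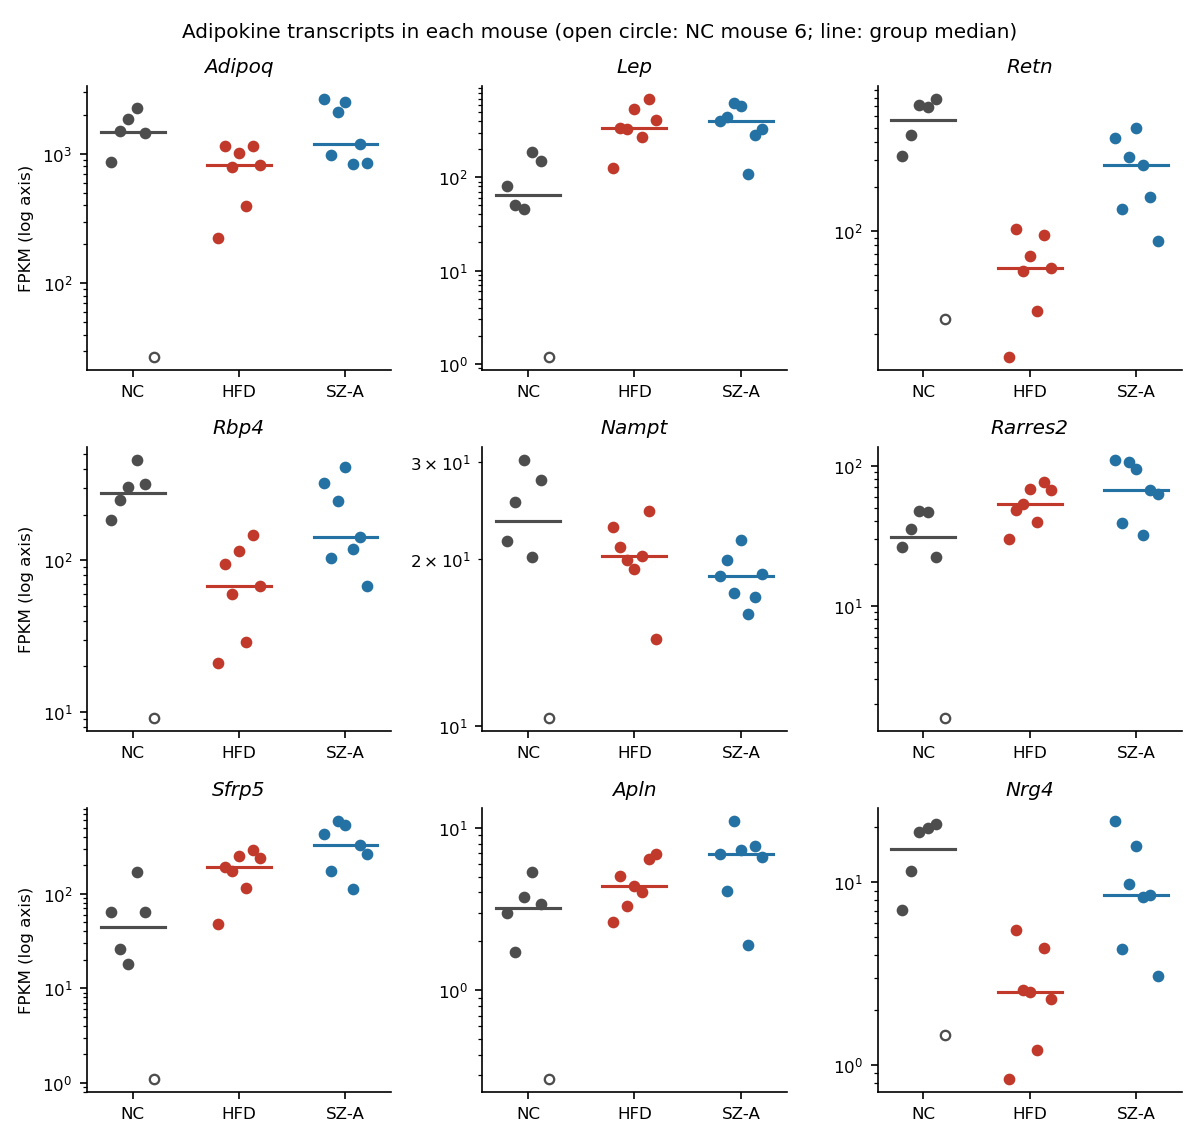
FPKM of each of the 9 adipokine genes (vertical log axis) in every NC, HFD and SZ-A mouse, with a line at the group median and an open circle for NC mouse 6. Retn, Rbp4 and Nrg4 were low in HFD mice, Lep and Sfrp5 were low in NC mice, and NC mouse 6 sat at the bottom of the NC group for all 9 genes.

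Retn encodes resistin, a cysteine-rich hormone that in mice comes from fat cells, and it lies at chr8:3655770-3660110. NC mice other than mouse 6 had 323 to 783 FPKM, with a median of 685, and mouse 6 had 25.3 FPKM. HFD mice had 13.9 to 103 FPKM (median 55.8) and SZ-A mice 85.0 to 495 FPKM (median 281). Apart from NC mouse 6 the NC and HFD ranges did not overlap, and 6 of 7 SZ-A mice exceeded every HFD mouse. Retn fell by 2.71 on the log2 scale in HFD against NC (SE 0.73, adjusted p = 0.00959 by limma), and by 3.45 (SE 0.44, adjusted p = 3.5e-05) without NC mouse 6. It rose by 2.19 in SZ-A against HFD (SE 0.46, adjusted p = 0.00426). Against NC without mouse 6, SZ-A mice differed by -1.26 (SE 0.43), which did not pass (adjusted p = 0.114).

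Rbp4 encodes the carrier of retinol in blood and lies at chr19:38116629-38125281 on the minus strand. Its FPKM were 9.05 in NC mouse 6, 184 to 460 in the other NC mice, 21.1 to 147 in HFD mice (median 67.6) and 67.2 to 412 in SZ-A mice (median 143). The 5 NC mice other than mouse 6 all lay above the HFD range, while the SZ-A mice reached into both. With all mice the HFD to NC difference was -1.37 (SE 0.78, adjusted p = 0.180 by limma), and without NC mouse 6 Rbp4 fell by 2.17 (SE 0.44, adjusted p = 0.00133). Rbp4 rose by 1.40 in SZ-A against HFD (SE 0.47, adjusted p = 0.0442). That call was lost on leaving out HFD mouse 1, 3, 5 or 7 or SZ-A mouse 1, 3, 4 or 6, with adjusted p up to 0.0971. It was also lost with all 3 groups in the fit (adjusted p = 0.175 by limma).

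Nrg4 encodes a growth factor of the epidermal growth factor family that signals through ERBB4 and ERBB3, and it lies at chr9:55220222-55326844 on the minus strand. Part of its exons overlaps Fbxo22 (368 bases) and Gm15625 (177 bases) on the other strand, whose reads could not be told apart without strand. Nrg4 was the lowest of the 9 genes in HFD mice, at 0.833 to 5.50 FPKM (median 2.52), against 7.02 to 20.7 FPKM in NC mice other than mouse 6, which had 1.47. SZ-A mice ranged from 3.08 to 21.6 FPKM (median 8.48), and 5 of the 7 lay above the HFD range. Nrg4 fell by 1.73 in HFD against NC (SE 0.48, adjusted p = 0.0111 by limma), or by 2.17 (SE 0.33, adjusted p = 1.7e-04) without NC mouse 6, and it rose by 1.48 in SZ-A against HFD (SE 0.37, adjusted p = 0.0107).

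Rarres2, Apln and Nampt did not pass the test in any of the comparisons, with or without NC mouse 6, though some were called with array weights or after scaling to adipocyte markers. Rarres2, which encodes chemerin, an attractant for immune cells, lies at chr6:48569696-48572789 on the minus strand and shares 892 exon bases with Lrrc61 on the other strand. Its medians were 35.3 FPKM in the 5 NC mice other than mouse 6, 53.3 FPKM in HFD and 66.6 FPKM in SZ-A mice. The difference between HFD and NC was 1.24 (SE 0.57, adjusted p = 0.0982 by limma) with all mice and 0.61 (SE 0.25, adjusted p = 0.0659) without NC mouse 6. Apln, at chrX:48025146-48034853 on the minus strand, encodes the peptide apelin, which acts on the vessel wall and the heart, and ranged from 0.283 FPKM in NC mouse 6 to 11.01 FPKM in SZ-A mouse 3. Its medians were 3.42 FPKM without NC mouse 6, 4.40 FPKM in HFD and 6.88 FPKM in SZ-A mice, and the 3 ranges overlapped.

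Nampt, at chr12:32819545-32853349, encodes the enzyme that makes nicotinamide mononucleotide and is also found in blood as visfatin. It varied least of the 9, with 20.2 to 30.3 FPKM in NC mice other than mouse 6 (10.3 FPKM), 14.4 to 24.5 FPKM in HFD mice and 15.9 to 21.7 FPKM in the SZ-A group. The difference was -0.29 (SE 0.14, adjusted p = 0.114 by limma) for HFD against NC without mouse 6 and -0.12 (SE 0.11, adjusted p = 0.456) for SZ-A against HFD. For SZ-A against NC without mouse 6 it was -0.41 (SE 0.13, adjusted p = 0.103), with an unadjusted two-sided exact permutation p of 0.00379 over 792 regroupings.

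Counted together, 4 of the 9 genes were called between HFD and NC mice at an adjusted p under 0.05 by limma, 2 higher (Lep and Sfrp5) and 2 lower (Retn and Nrg4) in HFD mice. Of all 14706 genes tested, 21.0% were called higher and 20.1% lower. Without NC mouse 6 the count was 6 of 9, 2 higher and 4 lower, with Adipoq and Rbp4 added, where 22.6% of all genes were called higher and 22.6% lower. With an absolute log2 fold change above 1.5 required as well, 4 of the 9 were called with all mice and 5 without NC mouse 6, against 7.97% and 7.39% of all genes. Between SZ-A and HFD mice 3 of the 9 were called (Retn, Nrg4 and Rbp4), all higher in SZ-A mice, where 9.47% of all genes were called higher and 13.3% lower, and only Retn passed the stricter rule, as did 0.864% of all genes. Between SZ-A and NC mice 1 of the 9 was called with all mice, where 4.15% of all genes were called higher, 0.455% lower and 1.79% under the stricter rule. Without NC mouse 6 these shares were 4.63%, 0.870% and 1.57%, and 2 of the 9 were called (Lep and Sfrp5), both higher in SZ-A mice. The median difference of the 9 genes was -0.09 for HFD against NC, -0.29 without NC mouse 6 and 0.88 for SZ-A against HFD, beside -0.04, -0.04 and 0.03 over all genes tested. The first and second comparison share the 7 HFD mice, so a high or low value in those mice enters both with opposite sign.

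**Figure D2:**
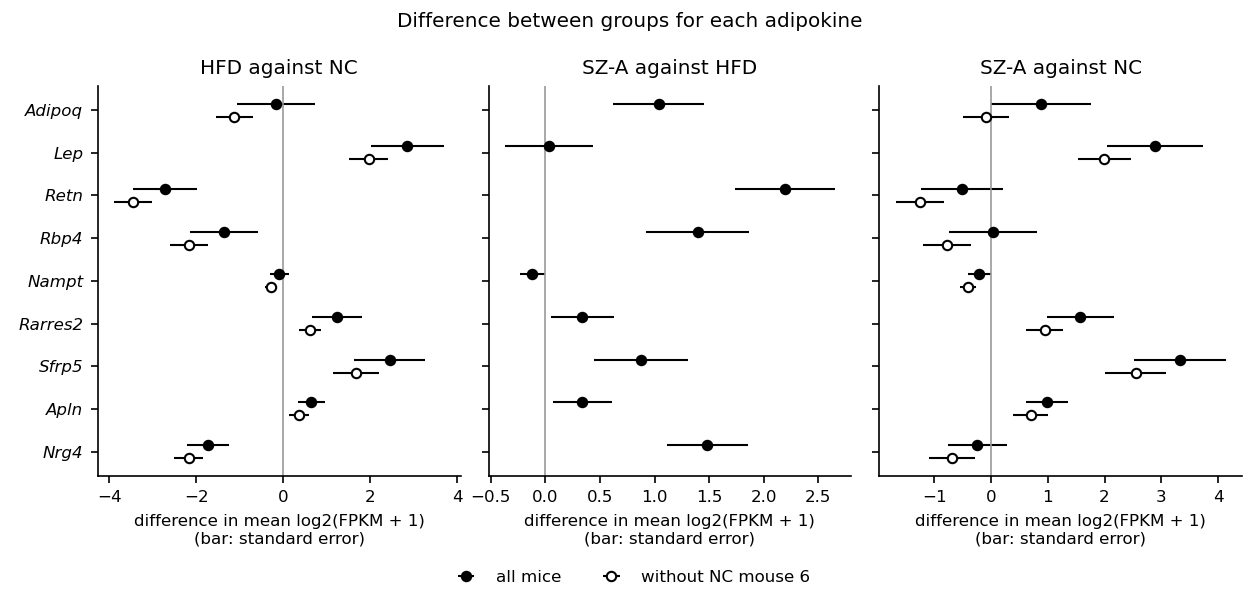
Difference between groups in mean log2(FPKM + 1), with standard errors, for the 9 adipokine genes in the 3 comparisons, with all mice (filled) and without NC mouse 6 (open). Leaving out NC mouse 6 moved all 9 differences of HFD against NC downward, from -0.16 to -1.13 for Adipoq and from 2.85 to 1.96 for Lep.

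The order of the genes differed between groups. By median FPKM, Adipoq, Retn and Rbp4 led in NC mice without mouse 6, at 1509, 685 and 304 FPKM, and Lep came next at 80.4 FPKM. In HFD mice Lep (339 FPKM) and Sfrp5 (194 FPKM) followed Adipoq (819 FPKM), and the neighbours Rbp4, Retn and Rarres2, at 67.6, 55.8 and 53.3 FPKM, overlapped in range. In SZ-A mice Lep and Sfrp5 again followed Adipoq, and Retn came next at 281 FPKM.

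Ratios within a mouse do not change with library size, and they were described here after the values had been seen, with no test. Lep stood at 0.0245 to 0.103 of the Adipoq level in NC mice, with mouse 6 at 0.0439, well inside that range. In HFD mice the ratio was 0.294 to 0.678 (median 0.531), and in SZ-A mice 0.130 to 0.461 (median 0.237), so SZ-A mice were above every NC mouse, lay by median between the other groups and overlapped with the HFD mice. Retn to Adipoq was 0.953 in NC mouse 6, 0.297 to 0.538 in the other NC mice and narrow in HFD mice, at 0.0629 to 0.0896. Among SZ-A mice it was 0.1004 to 0.335, above every HFD mouse. Sfrp5 to Adipoq behaved otherwise, with a median of 0.0425 in NC mice, and the HFD mice (median 0.249) overlapped with the SZ-A mice (median 0.213). Rbp4 to Adipoq was 0.340 in NC mouse 6 and 0.164 to 0.218 in the other NC mice. In HFD mice it was 0.0732 to 0.127, and SZ-A mice reached from 0.0794 to 0.164. Nrg4 to Adipoq had medians of 0.00944, 0.00325 and 0.00623 in the same order of groups.

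**Figure D3:**
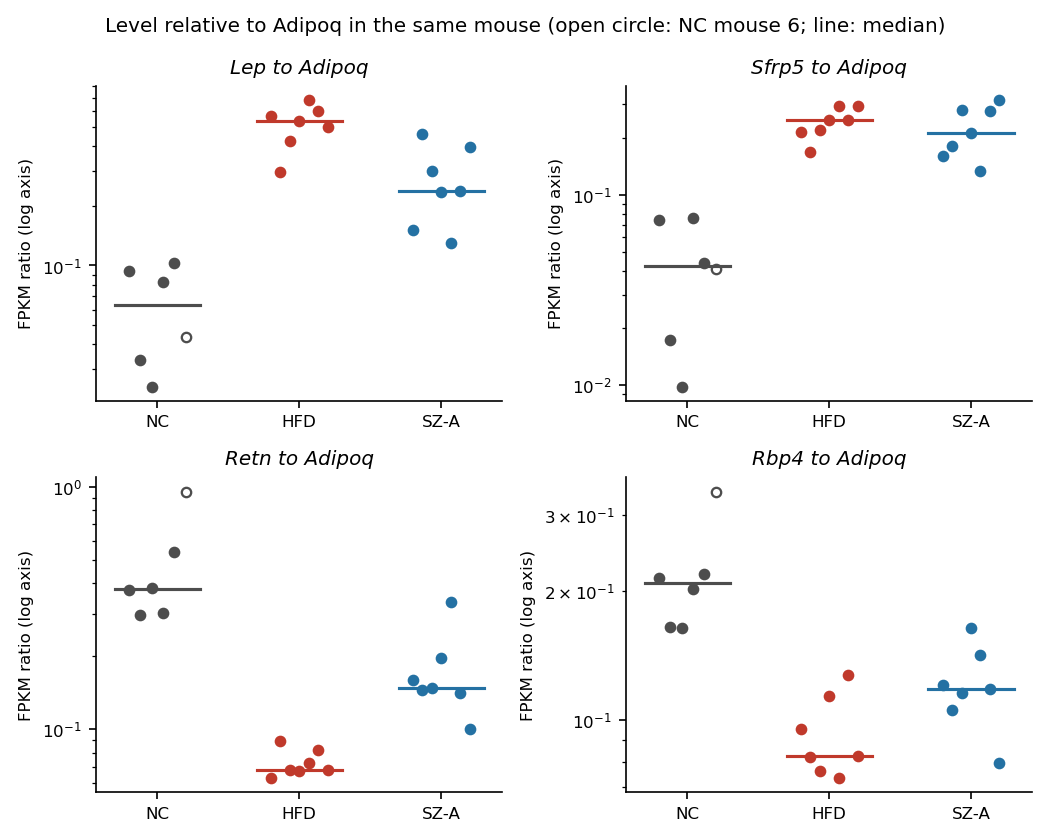
FPKM of Lep, Sfrp5, Retn and Rbp4 divided by the FPKM of Adipoq in the same mouse (log axes), with medians as lines and NC mouse 6 as an open circle. The Lep ratio had a median of 0.0634 in NC mice, of 0.531 with the diet and of 0.237 with diet and SZ-A.

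The adipocyte markers moved with several of the hormones. Their summed level was 3883 to 9672 FPKM in the 5 NC mice other than mouse 6, 1186 to 4816 FPKM in HFD mice and 3008 to 9832 FPKM in the SZ-A group. Without NC mouse 6, 9 of the 15 markers were called lower in HFD mice and 0 higher, with Adrb3, the fat cell adrenergic receptor, lowest at -3.40 (SE 0.63, adjusted p = 7.1e-04 by limma). With all mice only Adrb3 was called. Of all genes, 22.6% were called lower without NC mouse 6, and 20.1% lower and 21.0% higher with all mice. In SZ-A against HFD, 2 of the 15 were called higher, Adrb3 by 1.87 (SE 0.58, adjusted p = 0.0304) and Pck1, an enzyme of glyceroneogenesis, by 1.62 (SE 0.44, adjusted p = 0.0179). Of all genes, 9.47% were called higher and 13.3% lower in that comparison. All 10 macrophage markers were called higher with the diet and all 10 were called lower with SZ-A. Their summed level was 60.2 FPKM in NC mouse 6, 197 to 577 FPKM in the other NC mice, 2881 to 8948 FPKM in those on the diet alone and 1187 to 4169 FPKM after SZ-A. The summed fibroblast progenitor level was 68.0 FPKM in NC mouse 6, 317 to 937 FPKM in the other NC mice, 1248 to 1740 FPKM with the diet and 563 to 855 FPKM with diet and SZ-A. Of its 8 markers, 6 were called higher with the diet and 7 lower with SZ-A. Some markers listed for 3 other cell types were lower with the diet. In HFD against NC with all mice, 2 of 3 measured mesothelial, 4 of 6 smooth muscle and 3 of 5 epididymis epithelium markers were called lower, and 0 were called higher. The 2 mesothelial ones were Krt18 and Krt19. The third, Lrrn4, was not lower, with medians of 2.13 FPKM in NC and 3.03 FPKM in HFD mice. The mesothelial markers summed to 21.6 to 556 FPKM in NC mice and 4.29 to 17.3 FPKM in HFD mice, and after SZ-A they ran from 0.494 to 209 FPKM. The smooth muscle markers summed to 236 to 1760 FPKM in NC mice and 60.3 to 303 FPKM in HFD mice, and after SZ-A they ran from 144 to 806 FPKM. The part of these cell types in the hormone levels was not tested.

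When log2 values were shifted so that the mean of the 15 adipocyte markers was equal in all mice, the median of all genes moved to 0.99 for HFD against NC without NC mouse 6 and to -0.86 for SZ-A against HFD. On that scale, without NC mouse 6, a setting chosen after the data were seen, Adipoq differed by -0.10 (adjusted p = 0.821 by limma) between HFD and NC mice, whereas Lep rose by 2.99 (adjusted p = 1.9e-06), Sfrp5 rose by 2.70 (adjusted p = 3.1e-05) and Retn fell by 2.42 (adjusted p = 8.4e-06). Rarres2 (1.64, adjusted p = 0.00113) and Apln (1.39, adjusted p = 0.00621) were called higher and Rbp4 (-1.14, adjusted p = 0.0158) and Nrg4 (-1.14, adjusted p = 0.0152) lower. In this setting 7365 of all 14697 genes tested were called higher and 134 lower. With all mice under the same scaling, Lep, Sfrp5 and Retn were still called. There Rarres2 (adjusted p = 0.0771 by limma), Apln (0.590), Rbp4 (0.519) and Nrg4 (0.264) were not called. Between SZ-A and HFD mice Retn rose by 1.30 (adjusted p = 0.0114), while Rbp4 (0.51, adjusted p = 0.192) and Nrg4 (0.59, adjusted p = 0.136) were no longer called. Nampt was called on that scale, at -1.01 (adjusted p = 0.0489), close to the shift of all genes.

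Mice of the same group varied together in most hormones. After each group mean was subtracted from log2(FPKM + 1), the correlation with the mean of the adipocyte markers over the 19 mice other than NC mouse 6 was 0.98 for Adipoq, 0.95 for Rbp4, 0.91 for Retn, 0.89 for Nrg4 and 0.83 for Rarres2. It was 0.64 for Sfrp5, 0.60 for Apln, 0.58 for Lep and 0.06 for Nampt. With NC mouse 6 included the value of Nampt was 0.66 and that of Lep 0.85. These are descriptions over mice that share their libraries and scaling between genes.

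**Figure D4:**
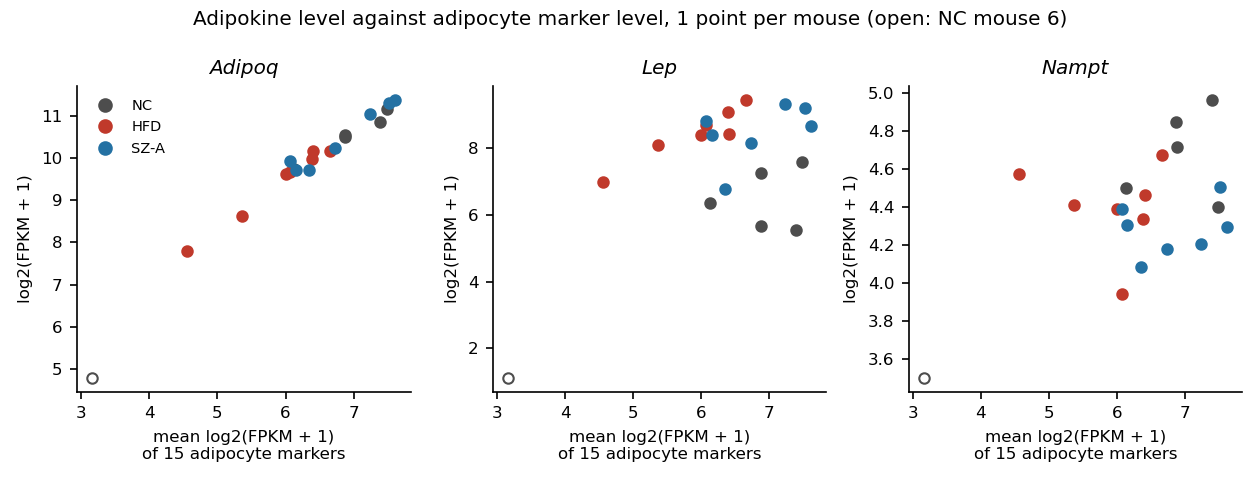
log2(FPKM + 1) of Adipoq, Lep and Nampt in each mouse against the mean log2(FPKM + 1) of 15 adipocyte markers, coloured by group, with NC mouse 6 open. Adipoq followed the markers across the groups, and Lep of NC mice lay below that of HFD and SZ-A mice with like marker levels.

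Among the hormones themselves, the same deviations over 19 mice were most alike for Adipoq and Rbp4 (r = 0.95), Retn and Nrg4 (r = 0.93), Retn and Rbp4 (r = 0.93), Adipoq and Retn (r = 0.90) and Lep and Sfrp5 (r = 0.90). Lep and Nrg4 had r = 0.40, and Nampt had values from -0.31 with Sfrp5 to 0.16 with Nrg4. Among all genes averaging 1 FPKM or more, the 3 genes most like Adipoq over these 19 mice were Lgals12, Ces1f and Smoc1 (r from 0.97 to 0.98). Retn and Nrg4 both had Pck1 first, at r = 0.94 and 0.96. Rbp4 was most like Car3 (r = 0.97) and Lgals12, Lep most like Marc1 (r = 0.95), Sfrp5 most like Crtac1 (r = 0.97), Rarres2 most like Cavin1 (r = 0.95), Apln most like Vash1 (r = 0.91) and Nampt most like Appbp2 (r = 0.81).

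**Figure D5:**
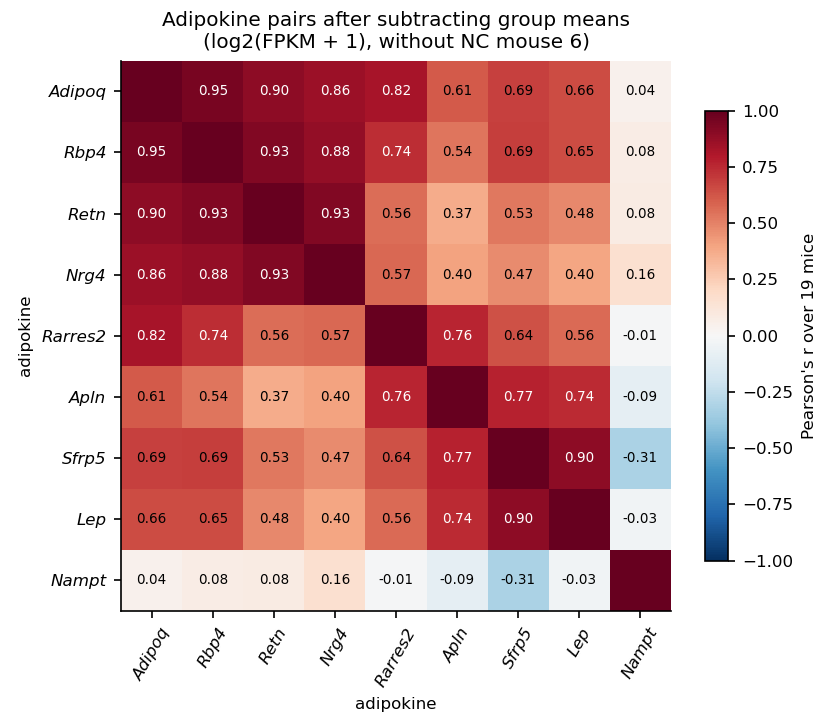
Pearson correlations between the adipokine genes of log2(FPKM + 1) after subtraction of group means, over the 19 mice other than NC mouse 6. Adipoq, Rbp4, Retn and Nrg4 formed a block with r from 0.86 to 0.95, Lep and Sfrp5 were alike at 0.90, and Nampt was near 0 with most of the others.

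Receptors and binding proteins of the hormones were in the table for 10 of 14 listed genes. Between HFD and NC mice 4 of the 10 were called higher and 1 lower with all mice, beside 21.0% and 20.1% of all genes, and without NC mouse 6 Adipor2, a receptor of adiponectin, was added to those called lower, at -1.27 (SE 0.31, adjusted p = 0.00454 by limma). Cap1, which has been described as a receptor of resistin in monocytes, rose by 1.51 (SE 0.16, adjusted p = 6.5e-06), and Stra6l, a receptor for RBP4, rose by 1.47 (SE 0.09, adjusted p = 7.6e-08). Ccrl2, which binds chemerin, rose by 1.61 (SE 0.25, adjusted p = 2.2e-04), and Aplnr, the apelin receptor, by 1.65 (SE 0.41, adjusted p = 0.00612). Without NC mouse 6 the rise of Ccrl2 was 1.34 (SE 0.13, adjusted p = 3.4e-06 by limma). Aplnr was 0.0371 FPKM in NC mouse 6 and 1.44 to 6.33 FPKM in the other NC mice. Erbb3, which pairs with the NRG4 receptor ERBB4, fell by 2.71 (SE 0.53, adjusted p = 0.00125), or by 2.40 (SE 0.50, adjusted p = 0.00170) without NC mouse 6. Erbb3 was highest in NC mouse 6, at 27.3 FPKM, and in SZ-A mice it was highest in mouse 2, at 13.1 FPKM. Both mice were high in the summed epididymis genes, while HFD mice had 0.360 to 0.713 FPKM of Erbb3. The part of the mesothelial, smooth muscle and epididymis cells described above in this fall was not tested. Lepr, the leptin receptor, did not pass (-0.21, SE 0.19, adjusted p = 0.411). In SZ-A against HFD, where 9.47% of all genes were called higher and 13.3% lower, only Cap1 of the 10 was called, and it fell by 0.98 (SE 0.17, adjusted p = 0.00134).

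The other lists around the hormones were called in part, and their counts stand beside the shares of all genes just given. Of 8 measured genes for the assembly and secretion of adiponectin, Gstk1, a disulfide-bond enzyme, fell by 1.01 in HFD against NC (SE 0.24, adjusted p = 0.00448 by limma), and 0 of the 8 were called in SZ-A against HFD. Of 7 measured Wnt ligands, receptors and secreted Wnt binders (Wnt5a, Wnt11, Fzd2, Fzd5, Fzd7, Sfrp1 and Sfrp4), only Fzd7 was called, rising by 1.85 with the diet (SE 0.31, adjusted p = 4.0e-04) and falling by 0.93 with SZ-A (SE 0.14, adjusted p = 7.2e-04). Of 10 measured genes of retinoid transport and metabolism, 2 were called higher and 3 lower in HFD mice, against 21.0% and 20.1% of all genes. Rbp7, a retinol binding protein inside cells, fell by 1.75 with the diet (SE 0.63, adjusted p = 0.0401) and rose by 2.06 with SZ-A (SE 0.43, adjusted p = 0.00412), the single call of that list in SZ-A mice. Of 10 measured genes of NAD salvage and use, the pathway of NAMPT, 1 was called higher (Parp1) and 2 lower (Nmrk1 and Nmnat3) in HFD mice, and the largest of these differences was 0.68. In SZ-A against HFD Nmrk1 was called higher and Parp1 lower.

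Of 16 transcription factors and cofactors known to act on adipokine genes, Atf3 was called higher and Klf15 and Ppargc1a lower in HFD mice, a smaller share in each direction than the 21.0% and 20.1% of all genes. Atf3, a stress-induced repressor, rose by 5.24 (SE 0.23, adjusted p = 1.1e-08 by limma), and Klf15, a factor of fat cell metabolism, fell by 2.17 (SE 0.33, adjusted p = 1.7e-04). In SZ-A against HFD Atf3 fell by 1.54 (SE 0.42, adjusted p = 0.0180) and Klf15 rose by 1.45 (SE 0.27, adjusted p = 0.00243). Pparg, the master regulator of fat cells, was called only without NC mouse 6, at -0.86 for HFD against NC (SE 0.26, adjusted p = 0.0180).

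Among 35 measured genes for other factors that fat tissue secretes, 11 were called higher and 7 lower in HFD than in NC mice, where all genes had 21.0% and 20.1%. With SZ-A 6 were called higher and 7 lower than in HFD mice, where all genes had 9.47% and 13.3%. Cfd encodes adipsin, complement factor D, and ranged from 4730 to 13266 FPKM in NC mice other than mouse 6, which had 228 FPKM. HFD mice had 47.9 to 388 FPKM, and SZ-A mice 476 to 2993 FPKM, all above the HFD range. Cfd fell by 4.42 in HFD mice (SE 0.84, adjusted p = 9.5e-04 by limma) and rose by 2.63 in SZ-A against HFD mice (SE 0.52, adjusted p = 0.00331). Agt, angiotensinogen, fell by 2.46 (SE 0.36, adjusted p = 1.5e-04) and rose by 1.66 (SE 0.27, adjusted p = 0.00117) in the same comparisons. With all mice the largest rises with the diet were those of Fbn1 (3.12), Fstl1 (2.92) and Metrnl (2.73). Without NC mouse 6 they were 2.69, 2.26 and 2.86 in the same order, so Metrnl was then the largest. Each was called lower with SZ-A, at -1.56, -1.22 and -1.15. Angpt2, angiopoietin 2 of the vessel wall, rose by 1.57 (SE 0.30, adjusted p = 0.00104) with the diet and fell by 0.70 with SZ-A (SE 0.19, adjusted p = 0.0180).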

How the data were processed

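Messenger RNA of eWAT was purified with poly-T beads and sequenced as 150-base paired-end reads. Alignment was to GRCm38 with HISAT2, per the authors, the submitters' processing notes name featureCounts 1.5.0-p3, and the deposited values are FPKM per gene. The labels give 6 NC mice, while the paper gives 7. The replicates are separate mice by the labels.

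Groups were compared pairwise with limma 3.58.1 in R 4.3.3 (lmFit and eBayes with trend) on log2(FPKM + 1). Genes averaging under 0.1 FPKM in both groups together were left out, with Benjamini-Hochberg adjustment over all genes tested. Fold changes on this scale understate the change of low genes. Exact permutation tests were two-sided and used all regroupings. Multiplied by exon length in GENCODE M21, 95.9% to 96.3% of the values under 1000 reads were whole within 0.01 reads, which gave the reads behind a value. The steps were tested on simulated data. Tables and plots used Python 3.11.15, pandas 2.3.3, numpy 2.4.6 and matplotlib 3.10.9.

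The 9 genes and the lists around them were chosen with earlier results of these data known. Beside the 9, the genes named are up to 3 called highest and 3 called lowest per list, Cfd and Angpt2 (another gene of this rule is not reported here), members of lists given in full, and the 3 genes with the most similar pattern to each hormone. Lepr was named after its value was seen. Alternatives were pseudocounts of 0.1 and 0.01, other filters and scalings, all 3 groups in the fit, array weights, voom on the reads behind the values, a block by replicate number, and leaving out each mouse. The authors assayed some of these hormones in serum too, and those values were not used here.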

Additional observations from a re-analysis of the deposited data

Results flagged for a closer look

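Of 27 pairs of a hormone and a group tested on log2(FPKM + 1) with Dixon's ratio at the 95% level, 5 stood out, and each was NC mouse 6 below the rest of its group. Adipoq was 26.6 FPKM in it, with a gap of 0.779 of the NC range to the nearest mouse. Lep was 1.17 FPKM, with a gap of 0.685 of the range. Retn was 25.3 FPKM (0.740 of the range), Rbp4 was 9.05 FPKM (0.762 of the range) and Rarres2 was 1.58 FPKM (0.750 of the range). The limit for 6 mice is 0.625, and chance alone marks about 1 in 20 groups. The 5 values come from 1 mouse, the same whose adipocyte markers were low and whose summed epididymis genes were high. They are therefore not independent of each other.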

How the results depend on the processing

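Of the differences of single hormones recomputed under the alternatives, 615 kept direction and side of the threshold, 28 lost a call, 21 gained a call and 29 changed sign, none of these 29 called before or after. The cause of these changes was not tested. Settings that joined NC mouse 6 left out with adipocyte-marker scaling, or left out SZ-A mice 2 and 7, were chosen after seeing the data. For HFD against NC, 4 hormones were called with all mice, 3 to 6 when 1 mouse was left out (6 without NC mouse 6), 2 with the replicate block and 7 with NC mouse 6 left out and adipocyte-marker scaling. For SZ-A against HFD, 3 were called, 2 to 4 when 1 mouse was left out, 7 with array weights, 2 with the replicate block and 1 (Retn) with the fold limit. For SZ-A against NC, 1 was called with all mice, and 0 to 2 when 1 mouse was left out. There, 2 were called with all 3 groups in the fit, 4 with array weights, 0 with voom, 0 with the replicate block, 4 by the exact permutation test without adjustment, 2 with NC mouse 6 left out under adipocyte-marker scaling and 2 without that mouse and SZ-A mice 2 and 7. Under the block, Lep (adjusted p = 0.0593) and Sfrp5 (0.0851) lost their calls in HFD against NC by limma and Rbp4 (0.0625) in SZ-A against HFD. The labels do not say what a shared number means, and whether same-numbered mice were linked was not tested. The r of same-numbered mice ran from -0.41 to 0.59. It was above 0.1 in 1 of 6 HFD and NC pairs, 3 of 7 SZ-A and HFD pairs and 2 of 6 SZ-A and NC pairs. Each of the 3 comparisons had 1 or 2 mice that were most like their own number. Array weights called Rarres2 in all 3 comparisons and Apln in both with SZ-A.

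Under adipocyte-marker scaling, Adipoq was 0.24 and Nampt 0.31 in HFD against NC, or 0.74 for Nampt without NC mouse 6, where the median of all genes was 0.36 and 0.99. In SZ-A against HFD, Lep was -0.85, Rarres2 -0.55, Apln -0.55 and Sfrp5 -0.012 on that scale, and Lep was -0.015 without SZ-A mice 2 and 7. In SZ-A against NC, Rbp4 was -0.0017 with median-ratio scaling, -0.46 with adipocyte-marker scaling, -0.20 with array weights, -0.64 with NC mouse 6 left out under adipocyte-marker scaling and -0.38 without that mouse and SZ-A mice 2 and 7. Leaving out 1 mouse moved Adipoq from -1.13 to 0.15 and Nampt from -0.29 to 0.0056 in HFD against NC, Lep from -0.21 to 0.32 in SZ-A against HFD, and Adipoq from -0.088 to 1.19 and Rbp4 from -0.78 to 0.33 in SZ-A against NC. Of the 27 genes most like a hormone over all 20 mice, 13 were shared with those over 19.

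Over all genes, adipocyte-marker scaling changed the counts from 3091 higher and 2956 lower to 571 and 32 in HFD against NC (7365 and 134 without NC mouse 6), from 1392 and 1957 to 10 and 4584 in SZ-A against HFD, and from 611 and 67 to 11 and 3 in SZ-A against NC (172 and 12 without NC mouse 6). Array weights raised the calls from 3349 to 6403 in SZ-A against HFD and from 678 to 2639 in SZ-A against NC, and all 3 groups in the fit gave 2088 and 1527. In SZ-A against NC the replicate block gave 173, leaving out NC mouse 6 with SZ-A mice 2 and 7 gave 1222, and leaving out 1 mouse gave 423 to 860. With the fold limit, pseudocounts of 0.1 and 0.01 and voom gave 2036, 2295 and 2239 in place of 1172 genes in HFD against NC, and 337, 485 and 458 in place of 127 in SZ-A against HFD. Adipocyte-marker scaling gave 603 (2882 without NC mouse 6) and 1163 there, array weights gave 201 in SZ-A against HFD, and leaving out 1 mouse 80 to 192. In SZ-A against NC, 263 genes became 399 at a pseudocount of 0.01, 415 with voom, 118 with the block and 14 with adipocyte-marker scaling (174 without NC mouse 6). By median over the mice, Apln and Nrg4 had the fewest reads, 247 and 640. The fewest in any mouse were 13 for Apln, 30 for Sfrp5, 57 for Lep and 61 for Rarres2, all in NC mouse 6.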
